A study of Mus musculus with 14 samples.

Results

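The Zic genes encode zinc finger transcription factors that are related to the Gli factors of Sonic Hedgehog signalling. They are named after the cerebellum, where Zic proteins are made by granule neuron progenitors (GNPs), which divide in the external granule layer, and by the granule neurons that these cells become. Zic1 is best known for keeping GNPs in a dividing, undifferentiated state. Loss of ZIC1 together with ZIC4 has been linked to a malformation of the human cerebellum, and ZIC2 to failed division of the forebrain. In mice Zic5 is needed for closure of the neural tube and for neural crest. Here 4 members, Zic1, Zic2, Zic4 and Zic5, were taken by gene symbol from 41381 genes in the deposited table, and all 4 passed the filter on low values that left 17325 genes for testing (at least 1 TPM in 4 or more libraries, where TPM is a transcript's share of a library per transcript length).

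GNPs were isolated from mouse cerebella at postnatal day 7 on a Percoll gradient and used fresh for sequencing of total RNA, in 14 libraries. The question was which transcripts differ when Chd7, a chromatin remodeller, is lost from the granule cell lineage. The 5 WT libraries carry floxed Chd7 without Atoh1-Cre, the 5 Het libraries come from Atoh1-Cre::Chd7 f/+ mice and the 4 Hom libraries from Atoh1-Cre::Chd7 f/f mice. For the libraries of the earlier submission the labels say only wild type, het mutant or hom mutant, and 1 WT library has no cell type label. The strain is written C56Bl6/J for the earlier libraries and C57BL/6 for the later ones, and the study's methods give C57BL/6N. Atoh1-Cre is driven by an Atoh1 enhancer that is active in granule cell progenitors, and the study describes Chd7 protein that remained in the posterior lobe of mutants, which it ascribes, as probable, to less efficient recombination there. The sex of the pups was not distinguished, and the labels do not say whether libraries came from separate animals, so p-values measure only the spread between these libraries. The study sequenced WT 1 to 3, Het 1 to 3 and Hom 1 and 2 in batch 1 (8 libraries) and the other 6 in batch 2. Chd7 at gene level did not follow the labels in batch 1, where it was 135 ± 15.6 TPM (SD, n = 3) in WT and 179 ± 9.12 TPM (SD, n = 2) in Hom, whereas in batch 2 it was 238 ± 48.7 TPM (SD, n = 2) in WT and 138 ± 17.1 TPM (SD, n = 2) in Hom. Gene-level TPM counts every exon and does not measure the floxed part by itself, and the study also examined Chd7 by quantitative PCR and immunostaining, which are not analysed here. Genotypes below are therefore those of libraries labelled WT, Het and Hom, and every direction rests on these labels.

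The 4 genes lie in pairs that point away from each other (GRCm38, GENCODE M21). Zic1 (ENSMUSG00000032368, chr9:91358058-91365810, minus strand) and Zic4 (ENSMUSG00000036972, chr9:91362413-91389348, plus strand) overlap by 3398 bp as annotated, because some Zic4 transcripts start inside Zic1. Their exons share 60 bp, which is 1.05% of the exonic length of Zic1 and 0.581% of that of Zic4, and the nearest starts of their principal transcripts are 3160 bp apart. TPM was estimated with RSEM at default parameters, which do not use strand, so reads from this shared stretch cannot be told apart. Zic2 (ENSMUSG00000061524, chr14:122475435-122479852, plus strand) and Zic5 (ENSMUSG00000041703, chr14:122456795-122465677, minus strand) do not overlap and are separated by 9757 bp. A noncoding gene, 2610035F20Rik, lies between them and ends 235 bp before Zic2. The first listed principal transcript encodes 447 residues for Zic1, 334 for Zic4, 529 for Zic2 and 622 for Zic5. Map positions of both pairs are drawn to scale as distance from the start of Zic1 or Zic2.

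**Figure D1:**
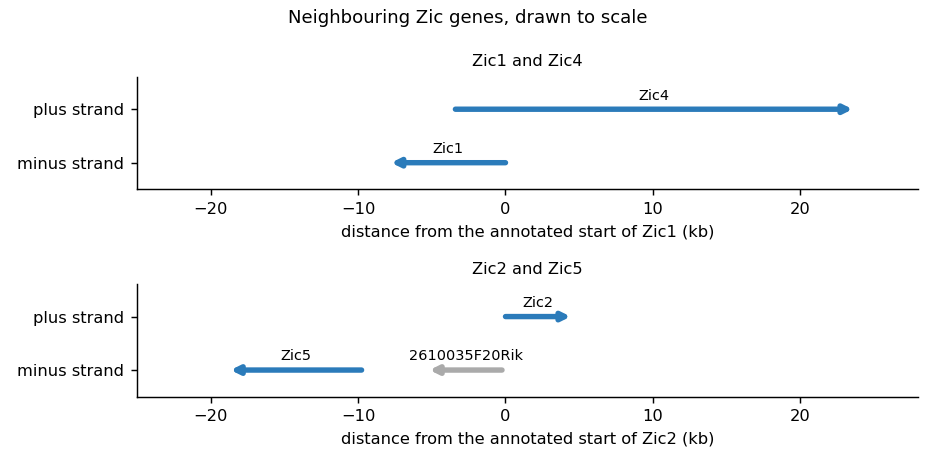
Annotated spans of the neighbouring Zic genes by strand, with the horizontal axis in kb from the annotated start of Zic1 (top) or Zic2 (bottom) and arrows in the direction of transcription. Zic1 and Zic4 overlap by 3398 bp, while 9757 bp separate Zic5 from Zic2, with the noncoding gene 2610035F20Rik (grey) between them.

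The 250 bases before 1 annotated transcript start are shown for each of 3 members that matched RefSeq's promoter table (GRCm38.p6). The members of the first pair start close together yet were read at different levels below, and a link between these windows and the levels was not tested. The windows follow. They are chr9:91365769-91366018 on the minus strand for Zic1, chr9:91368722-91368971 on the plus strand for Zic4 and chr14:122465659-122465908 on the minus strand for Zic5. Zic4 has 12 annotated transcripts with several starts, and its window covers only 1 of these starts. Capitals mark GGGCGG (the GC box) and CCAAT (the CCAAT box).
Zic1: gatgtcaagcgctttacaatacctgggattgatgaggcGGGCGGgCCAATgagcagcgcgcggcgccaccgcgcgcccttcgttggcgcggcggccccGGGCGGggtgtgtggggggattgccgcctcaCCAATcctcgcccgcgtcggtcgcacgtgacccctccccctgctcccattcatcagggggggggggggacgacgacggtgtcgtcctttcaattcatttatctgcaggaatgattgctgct
Zic4: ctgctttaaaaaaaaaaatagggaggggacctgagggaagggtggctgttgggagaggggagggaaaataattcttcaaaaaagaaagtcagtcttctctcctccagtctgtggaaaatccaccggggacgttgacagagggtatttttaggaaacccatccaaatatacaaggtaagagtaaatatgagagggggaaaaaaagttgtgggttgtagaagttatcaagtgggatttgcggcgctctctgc
Zic5: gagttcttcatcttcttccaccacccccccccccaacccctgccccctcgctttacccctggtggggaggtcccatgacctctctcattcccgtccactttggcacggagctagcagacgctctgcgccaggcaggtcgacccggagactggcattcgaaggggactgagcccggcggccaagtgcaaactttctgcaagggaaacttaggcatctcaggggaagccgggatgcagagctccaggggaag
The Zic1 stretch held 66% G and C and 27 CpG sites, Zic5 62.4% and 11, and Zic4 44.4% and 4, against a median of 52.4% G and C over 32851 promoters of the same length. Read on both strands, GGGCGG occurred 2 times before Zic1 and in 32.7% of all promoters, and CCAAT 2 times before Zic1 and in 33.8% of all. Neither occurred before Zic4 or Zic5. TATAAA, the TATA box, was in 12.4% of promoters, and TGGGTGGTC, the Gli site, in 0.225%, and neither was found in these 3 windows. The E box letters CANNTG occurred 1 time in each window and in 66.2% of all promoters. These are letter matches only.

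All 4 genes were abundant in every library. On the TPM scale, which is per transcript length and so allows genes to be compared, the mean over 14 libraries was 887 ± 138 TPM (SD) for Zic1, 343 ± 58.5 TPM for Zic2, 230 ± 37.7 TPM for Zic4 and 153 ± 24.4 TPM for Zic5. By mean level Zic1 fell in the top 0.675% of the 17325 genes tested, Zic2 in the top 2.26%, Zic4 in the top 3.63% and Zic5 in the top 6.36%. The order Zic1, Zic2, Zic4 held in 14 of 14 libraries. Zic4 lay above Zic5 in 13 of 14, and in WT 5 both were near 202 TPM (a Zic4 to Zic5 ratio of 0.999). The depth of each library is unknown, as TPM does not keep it, so no counting error can be given.

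**Figure D2:**
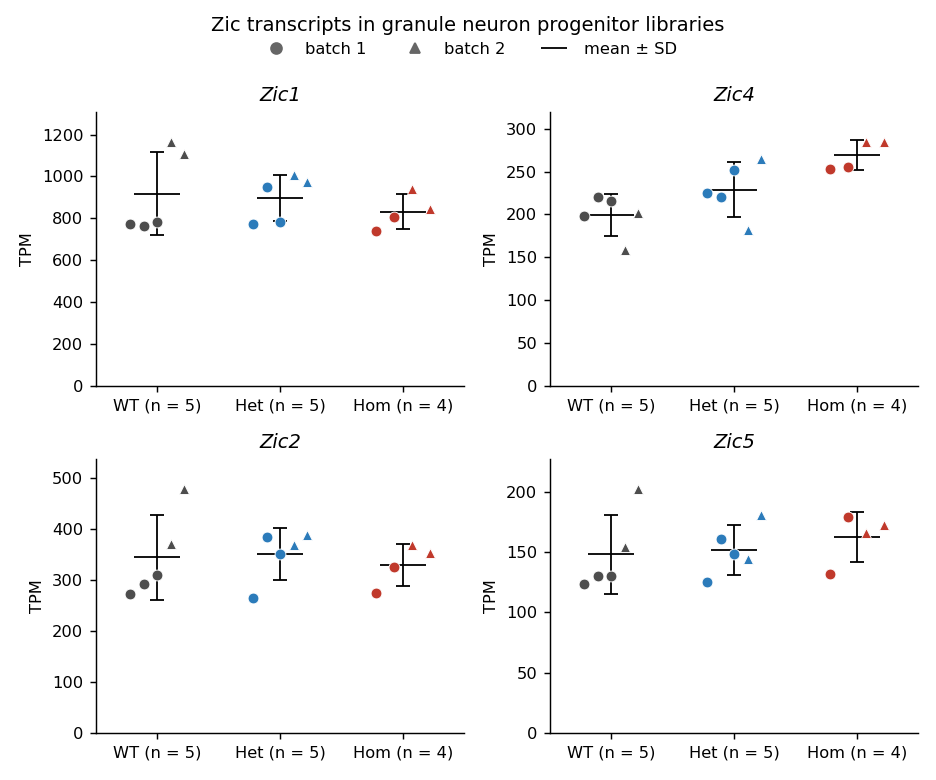
Level of each Zic gene in TPM (vertical axis) in every library, by labelled genotype (horizontal axis), with circles for batch 1, triangles for batch 2 and bars for the mean ± SD. The 4 Hom libraries lie between 253 and 285 TPM for Zic4, above the highest WT library at 221 TPM, while the genotypes overlap for Zic1, Zic2 and Zic5.

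Zic4 was the member whose libraries labelled Hom stood apart from those labelled WT. WT 1 to 5 had 199, 221, 216, 159 and 202 TPM. Het 1 to 5 had 225, 220, 252, 182 and 265 TPM, and Hom 1 to 4 had 253, 256, 285 and 285 TPM. Every Hom library lay above every WT library, a separation in this direction that 2.91% of all genes tested showed, and the Het libraries overlapped both groups. The means were 199 ± 24.5 TPM (SD, n = 5) in WT, 229 ± 32.1 TPM (SD, n = 5) in Het and 270 ± 17.7 TPM (SD, n = 4) in Hom.

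The difference of Zic4 in log2(TPM + 1) between Hom and WT, with batch as a term, was 0.45 (SE 0.11, 95% interval 0.21 to 0.69), or 1.36-fold. By limma its unadjusted p was 0.00144 and its adjusted p over all genes 0.0515, so it missed the threshold of 0.05. It stood 484th by p in a comparison that called 2.68% of genes, with 1.27% of all genes called higher and 1.41% called lower, and 0 of the 4 Zic genes were called by limma, with 1 of 4 (Zic4) at an unadjusted p under 0.05, which 14.9% of all genes reached. The call changed with the processing. The limma adjusted p was 0.0434 with a mean TPM of at least 5 as the filter, 0.0326 after quantile normalization (difference 0.47) and 0.0481 after median-ratio scaling (difference 0.42), so it was called under these settings. A different test, the exact Kruskal-Wallis test of any difference among WT, Het and Hom, gave a p of 0.00776 that is not adjusted over genes. It used values with the batch difference removed and arrangements that ignored batch, so this p is approximate and may be too small. Over all the alternatives run for this difference the limma adjusted p ranged from 0.0326 to 0.240.

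The direction was the same in each batch. In batch 1 the difference of Zic4 was 0.26 on the log2 scale (SE 0.077, limma adjusted p 0.186), with WT at 199 to 221 TPM and Hom at 253 and 256 TPM. In batch 2 it was 0.67 (SE 0.20, limma adjusted p 0.240), with WT at 159 and 202 TPM and both Hom libraries at 285 TPM. The limma interaction of genotype and batch was 0.40 (adjusted p 0.356). Without WT 4, the library with the lowest Zic4 level, the difference over both batches was 0.36 (limma adjusted p 0.111).

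Het libraries had intermediate mean Zic4 levels. The difference in log2(TPM + 1) from WT was 0.20 (SE 0.10, limma adjusted p 0.842), in a comparison that called 0.00577% of all genes, and that between Hom and Het was 0.25 (SE 0.11, limma adjusted p 0.786), in a comparison that called 0.427%. In either comparison 0 of the 4 Zic genes were called by limma. At an unadjusted p under 0.05 there were 0 of 4 for Het against WT (6.08% of all genes) and 1 of 4 for Hom against Het (Zic4, limma p 0.0414, against 6.18% of all genes). Single libraries carried much of these differences. The Het difference from WT was 0.12 without WT 4 and also 0.12 without Het 5, and that between Hom and Het was 0.16 without Het 4.

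**Figure D3:**
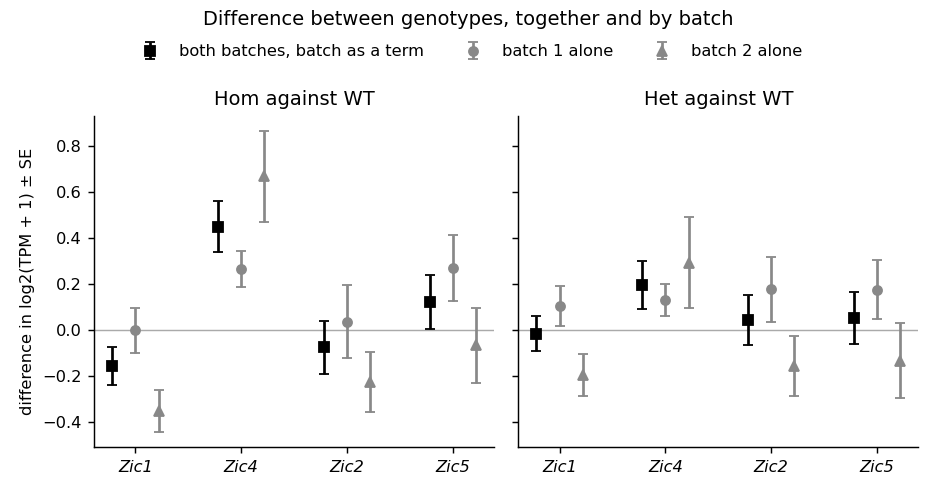
Difference in log2(TPM + 1) from WT (vertical axis, bars are SE from limma) for Hom (left) and Het (right), with squares for both batches together, circles for batch 1 and triangles for batch 2. Zic4 is above 0 in each fit, at 0.45, 0.26 and 0.67 for Hom. The batches differ in sign for Zic2 and Zic5, and for Zic1 in Het (0.10 in batch 1 and -0.20 in batch 2).

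Zic1, the partner of Zic4, did not share this pattern. WT 1 to 5 had 773, 764, 782, 1167 and 1105 TPM of Zic1. Het 1 to 5 had 773, 949, 784, 1009 and 974 TPM, and Hom 1 to 4 had 739, 808, 939 and 845 TPM. The 2 WT libraries of batch 2 had the highest values, and the 3 genotypes overlapped. Means were 918 ± 200 TPM (SD, n = 5) in WT, 898 ± 111 TPM (SD, n = 5) in Het and 833 ± 83.2 TPM (SD, n = 4) in Hom. The difference in log2(TPM + 1) between Hom and WT was -0.15 (95% interval -0.33 to 0.022, limma adjusted p 0.409), and that between Het and WT was -0.015 (limma adjusted p 0.986).

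The Zic1 difference between Hom and WT in batch 2 was -0.35 (SE 0.091, limma adjusted p 0.219), with WT at 1105 and 1167 TPM and Hom at 845 and 939 TPM. In batch 1 it was -8.6e-04 (SE 0.098). The limma interaction was -0.35 (unadjusted p 0.0250, adjusted p 0.227), so a difference between the batches was not called. WT 4 and WT 5 also held the highest Chd7 levels, 203 and 272 TPM against 121 to 152 TPM in the other WT libraries. Whether this had a part in the Zic1 values was not tested.

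For Zic2 and Zic5 no genotype difference passed the test. For Zic2, WT 1 to 5 had 273, 292, 309, 371 and 479 TPM, Het 1 to 5 had 264, 384, 352, 369 and 388 TPM, and Hom 1 to 4 had 274, 325, 368 and 353 TPM. The lowest library of each genotype belonged to batch 1 and the highest overall was WT 5. The difference in log2(TPM + 1) between Hom and WT was -0.075 (95% interval -0.32 to 0.17, limma adjusted p 0.830). For Zic5, WT 1 to 5 had 123, 130, 130, 154 and 202 TPM, Het 1 to 5 had 125, 161, 148, 144 and 181 TPM, and Hom 1 to 4 had 132, 179, 165 and 172 TPM. WT 5 again was highest, and the genotypes overlapped. The difference of Zic5 was 0.12 (95% interval -0.13 to 0.38, limma adjusted p 0.698). It was 0.011 without Hom 2 and 0.22 without WT 5. In Het the differences from WT were 0.044 for Zic2 and 0.052 for Zic5 (limma adjusted p 0.974 and 0.965). The noncoding gene between them, 2610035F20Rik, averaged 44.6 ± 6.33 TPM (SD, n = 5) for WT and 47.3 ± 7.58 TPM (SD, n = 4) in Hom (limma adjusted p 0.847).

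Zic1 and Zic2 differed between the batches. Across genotypes the batch 2 libraries were higher in log2(TPM + 1) by 0.35 for Zic1 (SE 0.066, limma adjusted p 0.00612) and by 0.34 for Zic2 (SE 0.093, limma adjusted p 0.0298). Zic5 had a batch difference of 0.26 (limma adjusted p 0.0888) and Zic4 of -0.064 (limma adjusted p 0.676), and neither passed the test. Of all genes tested, 2338 were called between batches. The title of Het 3 resembles those of the later libraries, but over 1928 genes that separated the batches it scored 0.143 on a scale with 0 for the mean of batch 1 and 1 for that of batch 2. Batch 1 libraries ranged from -0.17 to 0.228 on this scale and batch 2 libraries from 0.861 to 1.11, so Het 3 was kept in batch 1.

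The paired genes were then compared as a ratio within each library, which does not change with the scaling of a library. For Zic1 to Zic4, WT 1 to 5 had TPM ratios of 3.89, 3.46, 3.62, 7.35 and 5.46. Het 1 to 5 had 3.43, 4.31, 3.12, 5.55 and 3.68, and Hom 1 to 4 had 2.92, 3.16, 3.29 and 2.97. Every Hom library lay below every WT library, and how often other gene pairs separate in this way was not tested. The ratio reuses the values above, where Hom differed from WT by 0.45 for Zic4 and -0.15 for Zic1. It is therefore not a result separate from that of Zic4. The batch-adjusted log2 ratio of Hom against WT differed by -0.61 (SE 0.18), so that Zic1 per Zic4 was 0.657 times that of WT. An exact two-sided permutation of the labels within batch gave p = 0.0167, the smallest that its 60 arrangements allow. After adjustment over the 6 ratio tests it was 0.05, which is not under the threshold. With so few arrangements the adjusted p could fall under 0.05 only if further ratio tests also had low p-values. Missing the threshold was therefore partly set by the design. The difference was -0.27 in batch 1 and -1.02 in batch 2. Without WT 4 it was -0.46. Het against WT differed by -0.21 (exact permutation p = 0.30, adjusted p 0.36) and Hom against Het by -0.37 (exact permutation p = 0.05, adjusted p 0.10). The Het difference was -0.078 without Het 5 and -0.10 without WT 4, and that of Hom against Het was -0.24 without Het 4.

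The Zic2 to Zic5 ratio spanned a narrower range. WT 1 to 5 had ratios of 2.21, 2.25, 2.39, 2.40 and 2.37. Het 1 to 5 had 2.11, 2.38, 2.38, 2.56 and 2.15, and Hom 1 to 4 had 2.07, 1.81, 2.23 and 2.05. Of the Hom libraries, Hom 3 fell within the WT range and the other 3 lay below it, again without a comparison to other gene pairs. The log2 ratio of Hom against WT differed by -0.20 (SE 0.052), or 0.871 times, with an exact permutation p = 0.0167, again the smallest possible, and an adjusted p of 0.05 under the same limit. It was -0.23 in batch 1 and -0.16 in batch 2. Het and WT differed by -0.0077 (SE 0.058, exact permutation p = 0.917) and Hom and Het by -0.19 (exact permutation p = 0.0833, adjusted p 0.125).

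**Figure D4:**
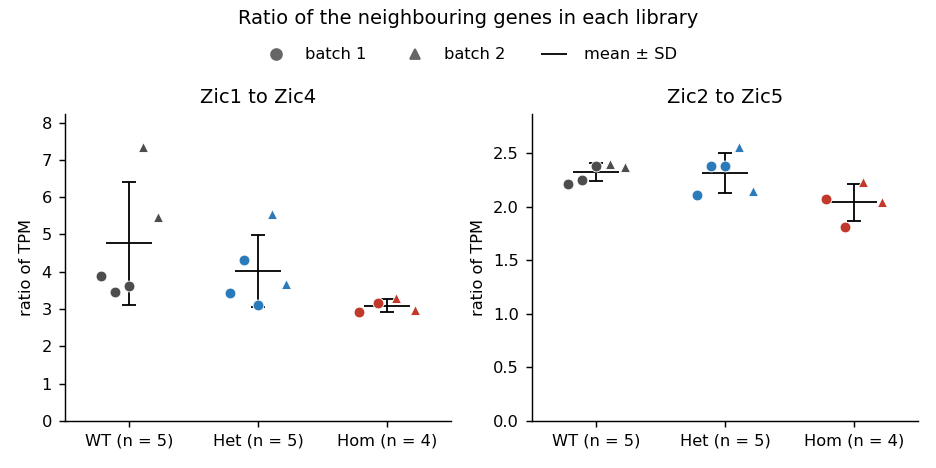
Ratio of the TPM values of the neighbouring genes in each library (vertical axis) by labelled genotype (horizontal axis), with circles for batch 1, triangles for batch 2 and bars for the mean ± SD. The Zic1 to Zic4 ratio is 2.92 to 3.29 in Hom and 3.46 to 7.35 in WT, and for Zic2 to Zic5 3 of 4 Hom libraries lie below the WT range.

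Across the 14 libraries the levels of Zic2 and Zic5 were correlated, and no such correlation was detected for Zic1 and Zic4. For Zic2 and Zic5 in log2(TPM + 1), Pearson's r was 0.85 (permutation p 1.3e-04, adjusted p 3.9e-04 over the 6 pairs of members) and Spearman's rho was 0.80 (permutation p 8.7e-04, adjusted p 0.0026). These permutations mixed the libraries of both batches, although Zic2 was higher in batch 2, so their p-values include the difference between batches. Without WT 5 and Het 1, the libraries farthest from the median of Zic2, r was 0.75. On the residuals of the genotype and batch fit it was 0.88. Within batch 1 r was 0.75 (rho 0.81, exact permutation p 0.0291 for r, adjusted p 0.0872) and within batch 2 also 0.75 (rho 0.49, exact permutation p 0.0917 for r, adjusted p 0.275), and neither passed the test after adjustment. For Zic1 and Zic4, r was -0.46 (permutation p 0.0986, adjusted p 0.148) and rho was -0.26 (permutation p 0.366, adjusted p 0.439). Zic1 was higher in batch 2, so this r over all libraries includes the difference between batches. Without WT 4 and WT 5, the only WT libraries of batch 2, r was -0.016, so the pooled value depended on them. On the residuals of the genotype and batch fit r was -0.52, and after removal of batch means alone it was -0.66. Within batch 1 r was -0.15 (rho -0.048, exact permutation p 0.778 for r). Within batch 2 it was -0.86 (rho -0.89, exact permutation p 0.0306 for r, adjusted p 0.183).

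Of the other pairs, Zic1 and Zic2 had r = 0.83 (rho 0.91, permutation p 1.3e-04 for r, adjusted p 3.9e-04), and 0.85 without WT 4 and WT 5. Within batch 1 it was 0.79 (exact permutation, adjusted p 0.0479) and within batch 2 0.52 (exact permutation, adjusted p 0.681), which did not pass. On the residuals of the genotype and batch fit it was 0.62. Zic1 and Zic5 had r = 0.63 (rho 0.67, permutation p 0.0178 for r, adjusted p 0.0356), with 0.60 within batch 1 and -0.014 within batch 2, and neither batch alone passed the test (exact permutation, adjusted p 0.222 and 0.982). Zic1, Zic2 and Zic5 had higher levels in batch 2 (called by limma for Zic1 and Zic2), so these relations over all libraries include the difference between batches. Zic4 had r = -0.083 with Zic2 (permutation p 0.775) and 0.26 with Zic5 (permutation p 0.376).

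**Figure D5:**
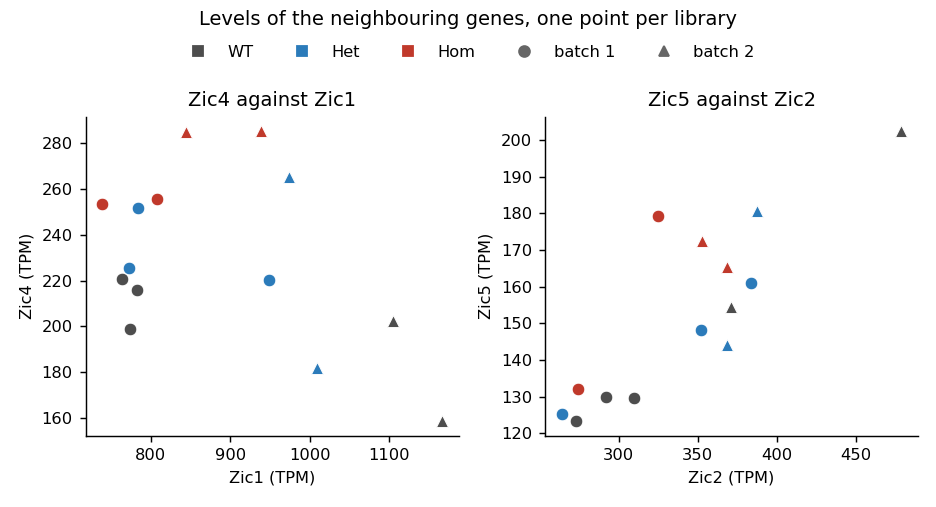
Level of Zic4 against Zic1 (left) and of Zic5 against Zic2 (right) in TPM, with 1 point per library, colours for the labelled genotype, circles for batch 1 and triangles for batch 2. Zic5 climbs with Zic2 (r = 0.85 on the log2 scale), while WT 4 and WT 5 combine the highest Zic1 levels with Zic4 levels of 159 and 202 TPM.

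The genes whose levels were most like each member were sought by Pearson's r after removal of batch means, over 14 libraries and 12300 genes with a mean TPM of at least 5. They are given as a description, since the libraries share genotypes and the genes were picked for the highest values. Zic4 was most like Adpgk (r = 0.97), which encodes an ADP-dependent glucokinase, Gtf3c1 (0.96), a subunit of an RNA polymerase III factor, and Lmcd1 (0.95). Zic1 ranked 11844th in likeness to Zic4, with r = -0.66. Zic1 was most like Atp8a2 (0.95), a phospholipid flippase, Mturn (0.93) and Zfyve27 (0.92). Zic2 was most like Rnf4 (0.90), a ubiquitin ligase, Ist1 (0.90) and Usp33 (0.87), and Zic5 ranked 54th with r = 0.75. Zic5 was most like Luc7l (0.93), an unnamed gene (ENSMUSG00000099515, 0.93) and Tbl1x (0.90), a corepressor subunit, and Zic2 ranked 136th.

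Genes with related roles were read beside the members from lists. Over all lists 8 of 103 genes tested were called by limma in Hom against WT, where 2.68% of all genes were. At an unadjusted p under 0.05 there were 33 of 103, against 14.9% of all genes. Of 15 tested transcription factors of the granule lineage, 2 fell in Hom against WT and 0 rose, where 1.41% of all genes fell. At an unadjusted p under 0.05, 6 were lower and 1 was higher, against 6.42% and 8.51% of all genes, and 11 of 15 differences were below 0, with a median log2 difference of -0.20 against 0.024 over all genes. The fallen genes were Neurod1 (-0.55, limma adjusted p 0.0116), which drives granule neuron differentiation, and Barhl2 (-0.53, limma adjusted p 0.0139), a homeobox factor. Of 5 Gli and Glis relatives 0 were called by limma (1 at an unadjusted p under 0.05), with a median of 0.014, and Gli1, a target of Sonic Hedgehog signalling, differed by 0.28 (limma adjusted p 0.266). Of 12 genes of proliferating progenitors 0 fell and 1 rose (at an unadjusted p under 0.05 it was 0 and 2), where 1.27% of all genes rose. The risen gene was Ccnd1, the cyclin induced by Sonic Hedgehog (0.80, limma adjusted p 1.11e-04), and the median was 0.019. Of 11 granule neuron genes 3 fell and 1 rose, against 1.41% and 1.27% of all genes (at an unadjusted p under 0.05 it was 6 and 1), with a median of -0.22. Cbln1, a secreted synapse organizer (-0.47, limma adjusted p 0.00107), Tubb3, a neuronal tubulin (-0.38, limma adjusted p 0.0111), and Slc17a7, a vesicular glutamate transporter (-0.71, limma adjusted p 0.0439), fell. Grin2c, a subunit of the NMDA receptor of mature granule neurons, rose by 1.51 (limma adjusted p 0.00465) at a mean of only 1.57 TPM. In Het against WT 0 of the 103 genes of all lists were called by limma, where 0.00577% of all genes were. At an unadjusted p under 0.05 there were 5 of 103, against 6.08% of all genes. In Hom against Het 2 of the 103 were called, where 0.427% of all genes were, and 13 had an unadjusted p under 0.05, against 6.18%. The 2 called were Tubb3 (-0.37, limma adjusted p 0.0438), which fell, and Grin2c (1.27, limma adjusted p 0.0454), which rose.

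The defining markers of granule progenitors were present in the libraries. Pax6 had a mean of 659 TPM, Barhl1 335 TPM and Atoh1 30.3 TPM, and Hom differed from WT by -0.28, 0.17 and 0.011 on the log2 scale (limma adjusted p 0.121, 0.503 and 0.991). Markers of other cells were also present, and in bulk samples fewer cells of a type and less RNA per cell cannot be told apart. Meningeal cells, which also express Zic genes, gave a summed level of 11 markers of 160 to 430 TPM in WT and 209 to 551 TPM in Hom, with 0 of 11 called by limma (0 at an unadjusted p under 0.05) and a median log2 difference of 0.19. Only 1 of the 11 differences was below 0. Igf2, the most abundant of these markers, differed by 0.20 (limma adjusted p 0.831). Interneuron markers (0 of 8 called, 1 at an unadjusted p under 0.05, 0 of 8 differences below 0, median 0.23) summed to 112 to 196 TPM in WT and 124 to 251 TPM in Hom, and Gad1 differed by 0.22 (limma adjusted p 0.709).

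Endothelial markers had the largest median difference of the lists, although 0 of 9 were called by limma. Their summed level ranged from 38.0 to 236 TPM in WT, 24.9 to 511 TPM in Het and 124 to 386 TPM in Hom, with a median log2 difference of 1.48 between Hom and WT, and 6 of 9 were higher at an unadjusted p under 0.05, which 8.51% of all genes were. Cldn5, a tight junction protein, differed by 1.92 (limma adjusted p 0.280). Among WT libraries this sum was 136 and 236 TPM in batch 2 and 38.0 to 49.5 TPM in batch 1. Astroglial markers were lower in Hom for 10 of 10 (0 called, 5 at an unadjusted p under 0.05, where 6.42% of all genes were lower, median -0.78). Their sums were 1185 to 1880 TPM in WT and 536 and 562 TPM in Hom in batch 1, but 419 and 895 TPM in WT and 349 and 718 TPM in Hom in batch 2, and Fabp7 differed by -1.20 (limma adjusted p 0.108). Of 8 Purkinje cell markers 1 fell, Pcp4 (-1.73, limma adjusted p 0.00914), where 1.41% of all genes fell. At an unadjusted p under 0.05, 2 of 8 were lower, against 6.42% of all genes, with a median of -0.50. Their sums were 176 to 221 TPM in WT and 79.3 and 93.8 TPM in Hom in batch 1, but 86.5 and 91.3 TPM in WT and 79.4 and 86.2 TPM in Hom in batch 2. Oligodendroglial markers (0 of 7 called, 2 at an unadjusted p under 0.05, median 0.24) summed to 655 to 1219 TPM in WT and 522 to 1246 TPM in Hom, with Mbp at -0.10 (limma adjusted p 0.737). Microglial markers (0 of 7 called, 0 at an unadjusted p under 0.05, median 0.15) summed to 186 to 432 TPM in WT and 285 to 425 TPM in Hom, with C1qb at -0.052 (limma adjusted p 0.957). No marker of these lists was at 0 in all libraries. The part of these cells in the Zic values was not tested.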

How the data were processed

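RNA-seq of 14 GNP libraries was analysed from 1 deposited table of TPM values. The authors prepared total RNA libraries, mapped single-end reads to the Ensembl mm10 mouse transcriptome with Bowtie 1.0.0 and estimated TPM with RSEM 1.2.15 at default parameters. The deposited TPM columns sum to 999999.14 to 1000000.79, and each Con column was read as the WT library with that number. TPM is a share of a fixed total and keeps no depth, so the precision of a single library is unknown. ComBat, which the study used, was not run here, and no column was left unused.

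Values were analysed as log2(TPM + 1), which understates changes of low genes, with limma 3.58.1 (lmFit, eBayes with trend) in R 4.3.3. Terms were genotype and batch, over all 14 libraries, on 17325 genes with a TPM of 1 or more in 4 or more libraries. Two-sided p-values were adjusted over all genes (Benjamini-Hochberg), and a gene was called at an adjusted p under 0.05. Other fits changed the pseudocount (0.1), filter, scaling, batch term or libraries, and added an exact Kruskal-Wallis test (threshold 0.01, 252252 arrangements) on batch-removed values. Pair ratios were tested by exact permutation within batch, on log2(TPM + 1) differences, and correlations by permutation (100000 resamples, exact within batches) in Python 3.11.15. Members and lists were chosen with earlier results of these data known. Named genes are the Zic genes, Chd7, the called members of each list (up to 4) or else its most abundant one, and the 3 genes most like each member. Pax6, Barhl1 and Atoh1 were added as lineage markers, and 2610035F20Rik for its position.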

Additional observations from a re-analysis of the deposited data

Results flagged for a closer look

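Zic2 in Het 1 lay apart from the other Het libraries. It was at 264 TPM, while Het 2 to 5 lay between 352 and 388 TPM, and its gap to the nearest library took 0.710 of the range of the group, just above the 95% critical value of Dixon's test for 5 libraries. This was 1 of 18 groups examined (4 genes and 2 ratios in 3 genotypes), and chance alone flags about 1 in 20. Without Het 1 the log2 difference of Zic2 between Het and WT was 0.11 (limma adjusted p 0.91), against 0.044 with it. No interaction of genotype and batch was called for a Zic gene.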

How the results depend on the processing

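Of 364 recomputed values, 339 kept their direction and, where a threshold was applied, their side of it. Pair ratios in 1 batch alone had no threshold and counted as kept when they moved by less than the larger group SD. Some ratio tests without 1 library had too few arrangements to pass. Of the results recomputed, only the correlation of Zic2 and Zic5 had passed its test, so most of the 339 values stayed uncalled and are no measure of stability. For Zic4, Hom against WT passed the test with a mean TPM of at least 5 (0.45), quantile normalization (0.47) and median-ratio scaling (0.42), and the log2 difference ranged from 0.36 to 0.50 without single libraries. Over all its alternatives the adjusted p was 0.0326 to 0.240. The exact Kruskal-Wallis p of 0.00776, under its own threshold of 0.01, is for any difference among the 3 genotypes and is not adjusted over genes. Its arrangements ignored batch, so it is approximate. It is no test of Hom against WT, whose difference in the batch-removed values was 0.45. Direction changed only for results that had not passed a test, which were all but the correlation of Zic2 and Zic5. In batch 1 alone Zic1 Het against WT was 0.10, Zic2 Hom against WT 0.036 and the log2 Zic2 to Zic5 ratio of Het against WT 0.0029. In batch 2 alone Zic2 Het against WT was -0.16, Zic5 Hom against WT -0.066 and Zic5 Het against WT -0.13, and with Het 3 in batch 2 Zic2 Het against WT was -0.025. Without single libraries, Zic1 Het against WT ranged from -0.076 to 0.032, Zic2 Hom against WT from -0.14 to 0.019, Zic2 Het against WT from -0.030 to 0.13, Zic5 Het against WT from -0.0016 to 0.14, Zic5 Hom against Het from -0.040 to 0.13 and the Zic2 to Zic5 ratio of Het against WT from -0.044 to 0.033. Without a change of direction, Zic5 Hom against WT ranged from 0.011 to 0.22, Zic4 Het against WT from 0.12 to 0.28, Zic4 Hom against Het from 0.16 to 0.33, Zic1 Hom against WT from -0.21 to -0.10, and the Zic1 to Zic4 ratio from -0.31 to -0.078 for Het against WT and from -0.45 to -0.24 for Hom against Het. The correlation of Zic2 and Zic5 no longer passed the test in batch 1 alone (0.75) or batch 2 alone (0.75), with fewer libraries. The cause of the other changes was not tested.

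Whether replicate numbers pair the libraries could not be decided, since deviations in groups this small are bound to each other. Same-numbered libraries correlated by -0.23 to 0.25 in their deviations (median -0.069), and 1 of 11 pairs was over 0.1. Other pairs of different genotype in the same batch correlated by -0.30 to 0.14 (median -0.13), and 1 of 22 was over 0.1. With the replicate block Zic4 Hom against WT was 0.50 (limma adjusted p 0.0652) and no Zic call changed, while 144 genes were called lower and 115 higher, against 245 and 220 without the block. Over all genes, alternatives moved the number called from 465 to between 4 (batch 2 alone) and 560 (quantile normalization) for Hom against WT, from 1 to between 0 and 13 for Het against WT, and from 74 to between 2 and 102 for Hom against Het. Without depth, counting error is unknown.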

Other observations

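The summed level of the 4 Zic genes was 1610 ± 288 TPM (SD, n = 5) in WT, 1630 ± 167 TPM (SD, n = 5) in Het and 1595 ± 152 TPM (SD, n = 4) in Hom. Within this sum Zic4 held 12.8 ± 3.21% in WT, 14.2 ± 2.42% in Het and 17.0 ± 0.889% in Hom, and Zic1 held 56.8 ± 3.62%, 55.1 ± 2.97% and 52.2 ± 1.10%. Zic2 held 21.3 ± 1.70%, 21.5 ± 1.50% and 20.6 ± 0.746%, and Zic5 held 9.16 ± 0.661%, 9.30 ± 0.590% and 10.2 ± 0.957%. By batch, the Zic4 share was 15.1 ± 0.582% for WT (SD, n = 3) against 17.2 ± 1.28% for Hom (SD, n = 2) in batch 1, and 9.37 ± 1.13% for WT (SD, n = 2) against 16.7 ± 0.705% for Hom (SD, n = 2) in batch 2. The summed level was 1404 TPM in WT and 1483 TPM in Hom in batch 1, and 1920 TPM in WT and 1706 TPM in Hom in batch 2, so that its order differed between the batches. After removal of batch means, Chd7 had r = 0.68 with Zic1, 0.55 with Zic2, 0.49 with Zic5 and -0.34 with Zic4 over the 14 libraries, given as a description. Among 12300 genes Chd7 ranked 656th in likeness to Zic1, 689th to Zic2, 1634th to Zic5 and 9979th to Zic4, so many genes were closer.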
